A study of Homo sapiens with 13 samples.

Results

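The vector control cells are human breast cancer cells taken from 3 xenograft tumours and sequenced one by one. They were chosen as every cell column of the single-cell table whose name starts with VC and that had at least 1000 detected genes, which gave 772 cell columns of the 1569 in the table. A column is called a cell here, although the profiles of many columns of a tumour were more alike than those of other columns (described with the depth below). The 3 tumours, told apart by the ending of the column names, gave 247, 267 and 258 cells and are called tumours 1, 2 and 3 here. All 772 vector control columns passed the gene minimum, and the poorest had 1161 genes. The cells are BM1, a bone-tropic derivative of the human line MDA-MB-231, which carried an empty vector. Each tumour grew for 3 weeks in the mammary fat pad of an athymic nude mouse, which lacks mature T cells, after 1000000 cells had been implanted, and its cells were then separated, with mouse cells and dead cells removed. Each of the 3 single-cell experiments held 1 such tumour and 1 tumour of cells expressing the RKIP S153E mutant, whose cells are not described here. The labels do not say whether the vector line was 1 clone. They describe separate tumours, so the spread between tumours covers separate animals.

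MDA-MB-231 belongs to the mesenchymal-like, hormone receptor-negative breast cancers, and genetically related cells of such a line can differ in cycle phase, in oxygen supply and in stress and cytokine responses. Single-cell sequencing reads this variation gene by gene, but rare transcripts vary by counting alone, so a gene's variation is judged against that of genes with a similar mean. Genes that belong to one program, such as mitosis, are known to be read together in the same cells.

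The tumours held 29793814, 19516061 and 25994495 counts, with medians of 95289, 55704 and 66420.5 counts per cell. Tumour 1 was the deepest per cell and yet had the fewest genes per cell, with a median of 3130 genes against 4361 and 4709. After every cell was thinned to 20000 counts, which left out 6, 21 and 21 shallower cells, the medians were 2086, 3196.5 and 3304 genes, so tumour 1 stood apart. The names place each cell in 1 of 10 chip columns and 1 of 29 chip rows, and 209 of these positions were filled in all 3 tumours. Cells in the same position of different tumours had a median rank correlation of 0.337 and a highest of 0.424. Row medians of depth ran from 20501 to 180438 counts. All 12 markers of mesenchymal-like MDA-MB-231 cells were counted, and they held 2.02% ± 0.201 of the counts (SD, n = 3). The luminal list held 0.160% ± 0.0200, mostly keratins, and EPCAM had 7.74, 14.3 and 12.3 counts per 1000000 counts (CPM). Of the host cell markers, 2 of 16 for leukocytes and 6 of 11 for endothelial cells were measured. Summed, they had 87.6 to 124 and 58.4 to 90.4 CPM. For fibroblasts 2 of 11 and for skeletal muscle 3 of 13 were measured, with 3.32 to 4.10 and 14.1 to 25.7 CPM. Of 9 keratinocyte markers 1 was measured, KRT10, at 140 to 159 CPM. Of the 7 adipocyte and 7 red blood cell markers 0 were measured. Every gene of the table was counted in at least 20 cell columns. The markers are human genes and the host is a mouse, so low or missing values do not show that host cells were absent.

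Within a tumour, cells of certain chip rows had profiles more alike than those of other cells. Pairs of cells from different chip columns had a median rank correlation of 0.31, 0.35 and 0.34 in tumours 1, 2 and 3 and a highest of 0.435, 0.434 and 0.459, and 282 pairs from the same chip column lay above that highest value, with medians of 0.646, 0.590 and 0.624. Such pairs are called linked here. Of them, 258 fell into 13 pairs of rows, among rows 12, 24 and 38, rows 9 and 31, rows 19 and 25, rows 2, 6, 11 and 14, and rows 4, 21, 26 and 36. In column 3 of tumour 2, for example, the cells of rows 12, 24 and 38 had 88, 81 and 98 thinned counts of ISG15 and 223, 190 and 230 of MALAT1. In all, 119 of 241, 100 of 246 and 107 of 237 thinned cells were linked, in 113 sets. The number of distinct cells may therefore be lower than the number of columns. A set can join cells that are not linked to each other. In 1 set of 6 cells of tumour 1, TOP2A had 3, 2 and 0 thinned counts in rows 4, 26 and 36. In rows 7, 18 and 21 of that set it had 36, 32 and 30. Keeping the deepest cell of each set left 163, 180 and 168 cells (511 of 724), and leaving out all linked cells left 398. Whether linked columns hold 1 cell under several row names or cells that share reads was not tested. The values below use all columns, with those for 1 cell per linked set, an alternative added after seeing the data, given for the main results and where it ends a call or a count.

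The genes with the highest counts were those of a mesenchymal, metabolically active and protein-making cell. The 20 genes with the highest mean CPM held 11.4%, 14.1% and 13.9% of the counts, and 11.3%, 14.4% and 14.03% with 1 cell per linked set. They comprised the glycolytic enzymes ENO1 and TPI1, the galectin LGALS1, the chromatin-associated protein PTMA, the intermediate filament VIM, the membrane-binding ANXA2, the iron store FTL, the chaperones HSP90AA1 and HSP90AB1, the myosin light chain MYL6, the histone HIST1H4C, the nuclear RNA MALAT1, the cancer-testis antigen SPANXB1, 6 cytosolic ribosomal protein genes and MTATP6P1, a nuclear copy of a mitochondrial gene. LGALS1 had 10254, 13543 and 12545 CPM in tumours 1, 2 and 3, and VIM had 3643, 4604 and 4488 CPM. Both were lowest in tumour 1. SPANXB1, a gene on chromosome X that is normally read in testis, had 8927, 9867 and 11767 CPM and was counted in 99.6%, 100% and 100% of thinned cells. MTATP6P1 had 5566, 7148 and 8776 CPM, and its reads cannot be told apart from those of the mitochondrial gene it copies, which was not analysed here. SPANXB1 likewise shares sequence with SPANXC and SPANXD, so its count is uncertain.

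ENO1 was first by counts with 15519, 13093 and 12389 CPM, and RPS27A had rank 5 with 6519, 11860 and 4993 CPM, but both positions rested on 1 chip row. Row 18 held 50.9% of the thinned ENO1 counts in 4.01% of the cells, and row 17 held 74.0% of those of RPS27A in 4.14%. Without that row ENO1 had 7745 ± 1220 CPM in place of 13667 ± 1642 and took rank 4. RPS27A had 1956 ± 589 CPM in place of 7791 ± 3606 (SD, n = 3) and took rank 47. LGALS1, PTMA and SPANXB1 then came first, with 12011, 10647 and 10182 CPM. Per kilobase of a gene's merged annotated exons, SPANXB1 had 21709 CPM per kb, HIST1H4C 13076, LGALS1 10929, FTL 8137 and ENO1 1468, each without its top row. Merged exons can be longer than any 1 transcript, which lowers genes with many annotated exons on this scale. The merged length was 5276 bases for ENO1 and 469 for SPANXB1. No source used here says whether reads cover whole transcripts or their ends, so the 2 scales stand side by side.

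**Figure D1:**
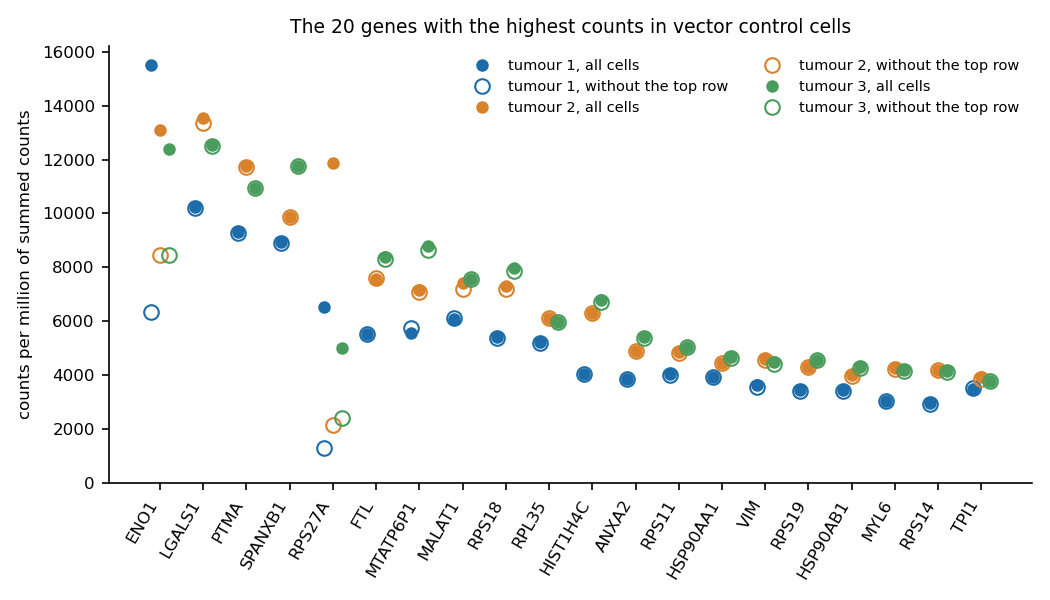
CPM (vertical axis, linear) of the 20 genes with the highest mean in vector control cells, with 1 filled point per tumour; open circles leave out the chip row in which that gene had its highest mean. ENO1 and RPS27A dropped to means of 7745 and 1956 CPM when that row was left out.

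Which genes differed most from cell to cell was asked at equal depth in the 724 cells that could be thinned (241, 246 and 237 per tumour). For each gene the log2 squared coefficient of variation was set against the trend of all genes on the mean, and the excess over the trend is called the residual. One unit of residual is a doubling of the squared coefficient of variation. Over 8604 genes, the residuals of pairs of tumours had Pearson correlations of 0.42, 0.32 and 0.33, across genes, which are not independent replicates. With limma over the 3 tumours and Benjamini-Hochberg adjustment, 7 genes were more variable than the trend (0.0814% of those tested) and 670 were less variable (7.79%). With 1 cell per linked set 8 genes were more variable (0.0931%), 5 of them shared with the 7, and 636 less, 569 of them shared with the 670; without all linked cells there were 7 (0.0845%) and 536. Leaving out tumour 2 or tumour 3 left 0 genes more variable, with 3 and 29 at an unadjusted p under 0.05, against 147 with all tumours. Genes at least 1 above the trend in each of the 3 tumours numbered 113, or 1.31%, and 115 with 1 cell per linked set. The 100 most variable genes were also picked in 2 tumours and looked up in the one not used. With tumour 1, 2 or 3 not used, 36, 41 and 46 of them were at least 1 above its trend. Of all genes there, 12.2%, 12.4% and 15.7% were. With 1 cell per linked set the counts were 30, 40 and 39. This was not repeated without the chip row in which each gene was highest. ENO1, RPS27A and CHCHD2, described next, were high in the same row in all 3 tumours. For such genes the tumour not used is no independent check.

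All 7 genes called more variable drew their high counts from 1 chip row. ENO1, the glycolytic enzyme enolase, had a median of 4307.5, 1641 and 1617 thinned counts in the 10, 10 and 9 cells of row 18, and of 120, 156 and 151 in all other cells. The groups did not overlap: the lowest cell of row 18 had 2350, 1146 and 769 counts and the highest cell elsewhere 435, 465 and 394. The residual of ENO1 was 6.65, 6.15 and 5.90 (mean 6.23 ± 0.94, SE, limma adjusted p = 0.00067), and without row 18 it was 0.54 on average. RPS27A, a fusion of ubiquitin with a ribosomal protein, had medians of 2431.5, 2793.5 and 769.5 in row 17 and of 23, 36 and 41 elsewhere, again with no overlap. Its residual of 6.33 ± 0.94 (limma adjusted p = 0.00058) was -0.02 without that row. CHCHD2, a protein of the mitochondrial intermembrane space, had medians of 1106, 2218.5 and 272 in row 2 and of 4, 6 and 7 elsewhere. In tumour 1 the lowest cell of row 2, at 53, lay below the highest cell elsewhere, at 57. Its residual of 5.32 ± 1.09 (limma adjusted p = 0.0061) was -1.07 without row 2. Row 2 is linked with rows 11 and 14, where CHCHD2 was not high, and has fewer counts per cell, so that keeping the deepest cell of each set left 0 of its 20 thinned cells and a residual of -1.22.

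The other 4 were the ribosomal protein gene RPL28, high in row 10, the long noncoding RNA CYTOR and GDAP2, both high in row 14, and COPZ1, a subunit of the COPI vesicle coat, high in row 18. Row 10 had median RPL28 counts of 194, 187 and 125.5 against 2, 2 and 2 in the other cells. In COPZ1 the medians of row 18 were 2.5, 357.5 and 37 against 0 elsewhere, and its lowest cells, at 0, 13 and 1, overlapped the other cells, which reached 51, 19 and 12. Row 14 held 91.0% of the GDAP2 counts in 3.73% of the cells, and these lay in a few cells: its median in row 14 was 0 in each tumour while the highest cell had 2030, 331 and 135. The residuals of these 4 genes were 4.01, 4.24, 5.16 and 4.11 (limma adjusted p = 0.035, 0.031, 0.0071 and 0.046), and without the top row -0.02, -0.33, -0.14 and -0.06. With 1 cell per linked set the call of GDAP2 was lost (limma adjusted p = 0.22), and CYTOR kept it (0.011) but lost it without all linked cells (0.32). ENO1, RPS27A and CHCHD2 were high in the same row in all 3 tumours, as the plot of counts by row shows. Among the 25 genes with the largest residual in their least variable tumour, 8 had at least 15% of their squared log2 deviations between rows, a mark set after seeing the data: ENO1, RPS27A, RPL28, CHCHD2, CYTOR, COPZ1, the repair gene ERCC1 and RPS27AP16, a processed copy of RPS27A. Of the 8604 genes tested, 32 reached this mark, these 8 among them. Over all genes the median share between rows was 4.11%, where the number of rows alone gives 3.87%. No source used here says what the cells of 1 row share beyond that number, and a cause was not tested.

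**Figure D2:**
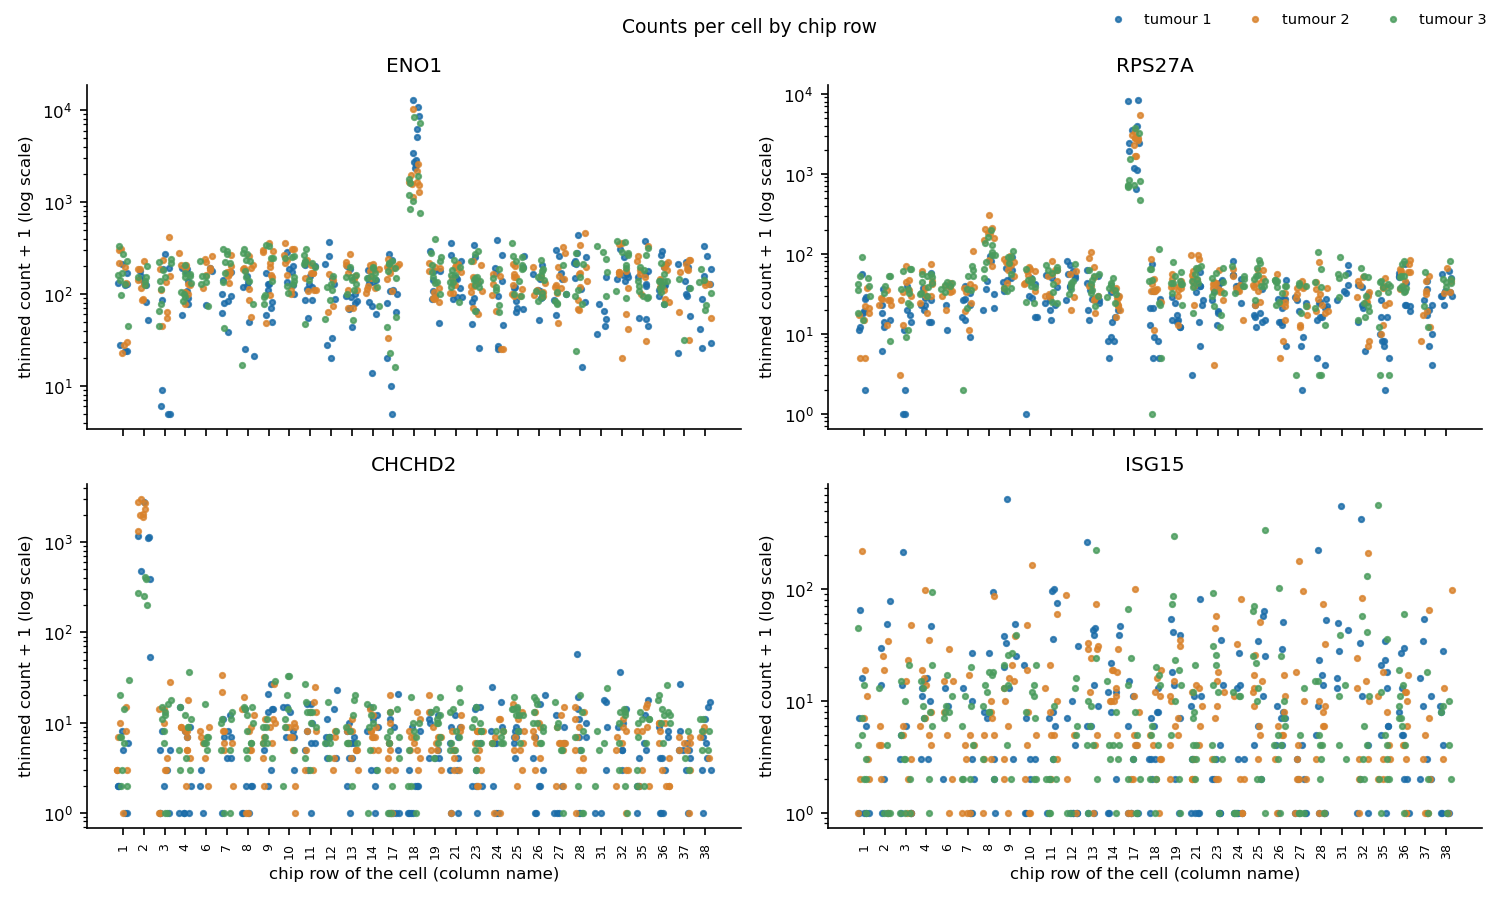
Thinned counts plus 1 (log scale) of ENO1, RPS27A, CHCHD2 and ISG15 in each of 724 cells (points, coloured by tumour, spread sideways at random within a row), by the chip row in the cell's name. ENO1 is high in row 18, RPS27A in row 17 and CHCHD2 in row 2 in each tumour, whereas the 6, 4 and 6 cells above 100 counts of ISG15 lie in as many rows. Linked cells are separate points; with 1 cell per linked set there were 5, 4 and 4 such cells in 5, 4 and 4 rows.

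When each gene's top row was left out, an alternative added after seeing the data that takes the highest row from every gene, 94 genes were more variable than the trend (1.14% of 8241), and 0 of the first 7 were among them. With 1 cell per linked set as well there were 62 (0.756%), 58 of them shared with the 94, and without all linked cells as well 81 (1.03%), 54 of them shared. The genes described next include 4 interferon-stimulated genes, 3 histone genes, the nuclear RNAs NEAT1 and MALAT1, the iron store FTL and 4 matrix genes at least 1 above the trend in each tumour; most genes of the interferon, histone and matrix lists were not. The following values are residuals or thinned counts over all rows, with the limma adjusted p given first for all rows and then without the top row. None of these genes passed the test over all rows and columns. With 1 cell per linked set IFIT2, the histone gene HIST1H2BK and the proteasome subunit PSMB1 passed it (39.6% and 47.6% of the squared log2 deviations of HIST1H2BK and PSMB1 lay between rows), and without all linked cells IFIT2, HIST1H2BK and HIST1H4C did.

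ISG15, a ubiquitin-like interferon product, had thinned counts from 0 to 636 around a median of 5 in tumour 1, from 0 to 220 around 5 in tumour 2 and from 0 to 562 around 5 in tumour 3. Its high cells were thus far above the median in every tumour. The residuals were 3.03, 2.45 and 3.60 (limma adjusted p = 0.10 and 0.0018). IFIT2 and IFIT3, antiviral proteins that bind RNA, were counted in 14.9%, 17.5% and 15.6% and in 31.1%, 30.5% and 32.1% of cells. IFIT2 reached 129, 280 and 208 counts in its highest cells and had a median of 0 in each tumour. Its residuals were 2.35, 4.64 and 4.21 (limma adjusted p = 0.056 and 0.0057; over all rows 0.027 with 1 cell per linked set), and those of IFIT3 were 1.91, 3.34 and 2.24 (0.16 and 0.010). OASL, a further antiviral gene, was counted in 8.71%, 12.6% and 15.6% of cells, with residuals of 1.06, 2.12 and 1.62, the first of which was 0.99 with 1 cell per linked set. Of the 35 interferon-stimulated genes tested, 4 were at least 1 above the trend in each tumour (ISG15, IFIT2, IFIT3 and OASL), 0 were called more variable with all rows and 4 without the top row, and 1 was called less variable. The median residual of the list was 0.36, against 0.08 for all genes.

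These interferon genes shared cells only in part. In cells with IFIT3 the mean ISG15 count was 44.5, 26.7 and 33.7, and in cells without it 11.4, 10.1 and 8.45. The mean was higher with IFIT3 in all 3 tumours. IFIT2 was counted in 28.0%, 29.3% and 22.4% of cells with IFIT3 and in 9.04%, 12.3% and 12.4% of cells without it. Most cells with IFIT3 therefore had no IFIT2 count at this depth. The rank correlation of ISG15 with IFIT3 was 0.19, 0.21 and 0.26, and 1 of the 190 interferon pairs measured reached 0.2 in every tumour, IFITM2 with IFITM3, which are close copies of each other.

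The promoters of 2 of these genes are shown because their known control by interferon works through a short repeated element. Letters are the 150 bases before the start of the gene, 5′ to 3′ on its strand, from RefSeq (GRCh38.p14): ISG15 chr1:1013347-1013496 (plus strand) and IFIT3 chr10:89327847-89327996 (plus strand). Capitals mark a pair of GAAA motifs with any 2 bases between them on either strand, the core of an interferon-stimulated response element, and matches that overlap are merged.
ISG15: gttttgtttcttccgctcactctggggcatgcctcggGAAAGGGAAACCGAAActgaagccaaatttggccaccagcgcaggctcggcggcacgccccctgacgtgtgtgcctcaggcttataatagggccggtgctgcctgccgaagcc
IFIT3: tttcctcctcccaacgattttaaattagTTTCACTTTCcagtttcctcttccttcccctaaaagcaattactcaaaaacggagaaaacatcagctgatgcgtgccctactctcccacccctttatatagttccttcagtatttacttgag
In the 250 bases before the start, 18 of the 29 matched interferon-list promoters held this motif (62.1%), against 3.07% of all 27305 promoters and 2.41% of those of the tested genes. A match describes the letters only.

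HIST1H4C, a replication-dependent histone H4 gene, ran from 0 to 461 counts around a median of 30 in tumour 1, from 0 to 1613 around 42.5 in tumour 2 and from 2 to 1050 around 53 in tumour 3. The range was widest in tumour 2. Its residuals were 2.11, 3.87 and 3.22 (limma adjusted p = 0.10 and 0.0018). The linker histone HIST1H1E had residuals of 1.37, 1.56 and 1.16 (0.31 and 0.043). Of 22 histone genes tested, 3 were at least 1 above the trend in each tumour, HIST1H4C, HIST1H1E and HIST1H2BC, and the list's median residual was 0.59.

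FTL, the light chain of the iron store ferritin, spanned 4 to 1357, 7 to 1470 and 9 to 1447 counts around medians of 76, 111 and 122. Its residuals were 2.09, 2.84 and 2.55 (limma adjusted p = 0.16 and 0.0052). NEAT1, the RNA scaffold of paraspeckles, spanned 0 to 440, 0 to 259 and 0 to 318 around 9, 12 and 9 (residuals 2.13, 1.88 and 1.95), and MALAT1, an RNA of nuclear speckles, spanned 12 to 1252, 10 to 1206 and 5 to 670 around 102, 128 and 130 (residuals 1.91, 2.05 and 1.41). MALAT1 was counted in every thinned cell. SOX4, a transcription factor of development and invasion, was counted in over 98% of cells in each tumour and had residuals of 1.55, 2.54 and 1.83 (limma adjusted p = 0.23 and 0.011). PODXL, an anti-adhesive surface protein, had residuals of 1.93, 2.31 and 3.14, and SMARCA4, the ATPase of a chromatin remodeller, 1.99, 3.44 and 1.50, the last of which was 0.64 with 1 cell per linked set.

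Among 47 matrix, protease and adhesion genes, 4 were at least 1 above the trend in each tumour and the median residual was 0.43, with none called over all rows. The matrix glycoprotein FN1 had residuals of 1.60, 1.37 and 2.49, the protease inhibitor TIMP1 1.35, 1.55 and 1.33, the matrix glycoprotein THBS1 1.39, 1.07 and 1.43 (0.83 in tumour 2 with 1 cell per linked set), and the collagenase MMP1, counted in 4.56%, 8.13% and 9.70% of cells, 1.61, 2.29 and 1.22. Of the 20 genes of the bone metastasis list, 2 were at least 1 above the trend in each tumour, MMP1 and the hypoxia-responsive lipase inhibitor ANGPTL4 at 1.27, 1.45 and 1.41. FST, a secreted binder of activin, fell short of that in 2 tumours with 2.31, 0.90 and 0.67. The parathyroid hormone-like PTHLH, known for its part in bone loss, had 0.74, 1.86 and 2.51.

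In the cytokine and NF-kB list, IL6, an inflammatory cytokine, was counted in 4.98%, 6.10% and 6.75% of cells and had residuals of 2.78, 6.67 and 1.33. Its highest cell had 91, 837 and 19 counts, and 29.9% of its deviations lay between rows. The chemokine CXCL3 had 0.51, 0.96 and 1.69 and CXCL1 0.87, 0.59 and 1.85. Of 42 immediate-early genes, 2 were at least 1 above the trend in each tumour, JUN at 1.49, 2.87 and 1.01 and CCN1 at 1.59, 2.54 and 1.09 (0.92 in tumour 3 with 1 cell per linked set); the others named by rule were PPP1R15A at 0.67, 4.50 and 2.57 and GADD45B at 2.37, 1.58 and 0.83. HSPA5, the main chaperone of the endoplasmic reticulum, had 0.81, 2.74 and 3.52 (limma adjusted p = 0.20 and 0.014), and HSPA6, a stress-induced chaperone counted in 9.13%, 13.4% and 8.86% of cells, 1.47, 1.96 and 1.35. TFF3 and AGR2, secretory proteins of luminal cells, were counted in 9.54%, 14.6% and 17.7% and in 10.8%, 15.04% and 19.4% of cells, with residuals of 1.12, 2.42 and 1.26 and of 0.87, 1.30 and 2.01.

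The remaining genes of the 25 most variable were counted in fewer cells. PRSS2, a trypsinogen, had residuals of 1.47, 2.94 and 2.81, INCENP, which carries Aurora B to the centromere, 1.47, 1.53 and 1.95 (0.54 in tumour 1 with 1 cell per linked set), WDR55 2.08, 1.41 and 1.80, GCAT, an enzyme of threonine breakdown, 1.36, 2.28 and 2.60, and CACFD1 4.48, 1.53 and 2.08. These 5 genes were counted in at most 34.6% of the cells of any tumour.

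**Figure D3:**
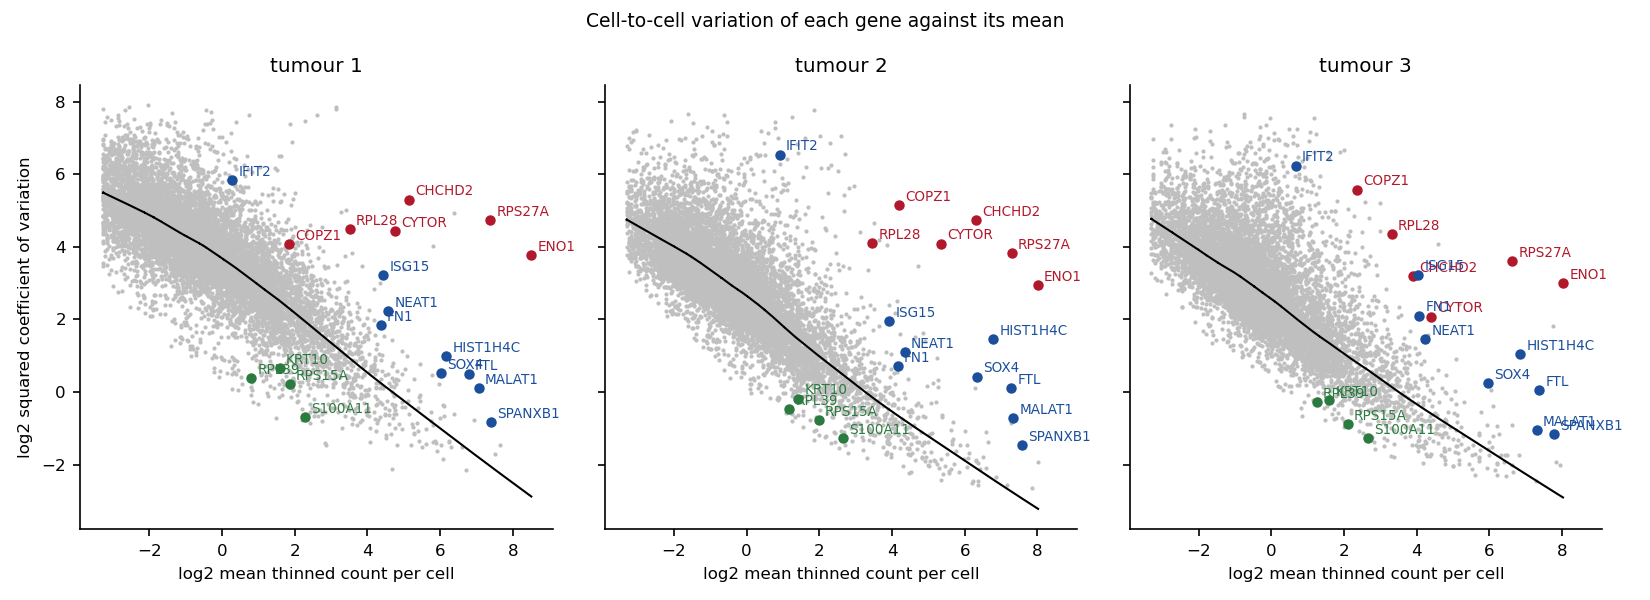
Log2 squared coefficient of variation of 8604 genes (grey points) against their log2 mean thinned count per cell, 1 panel per tumour, with the lowess trend as a black line. Red genes are the ones high in 1 chip row, blue genes are others named above the trend, and green genes lay below it; ENO1 lies 6.65, 6.15 and 5.90 above the line and RPL39 2.72, 2.13 and 1.87 below it.

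The genes that differed least between cells for their mean included many processed gene copies. The 10 genes with the smallest residual were PTMAP5, RPS11P5, RPLP0P2, RPL37AP1, RPS7P1 and 5 clone-named loci, all with counts of at most 11 per cell. Their residuals averaged -2.37 to -2.69, with limma adjusted p = 0.00053 for each. Pseudogenes made up 21.04% of the 670 genes called less variable and 2.31% of those tested, and reads of a processed copy cannot be told apart from those of its parent gene. Among protein-coding genes, picked after seeing that result, RPL39 had thinned means of 1.74, 2.24 and 2.38 and residuals of -2.72, -2.13 and -1.87. The calcium-binding S100A11 had -2.64, -1.74 and -1.89 and the keratin KRT10 -1.86, -1.63 and -1.58. Of 75 nuclear genes of the respiratory chain, 34 were called less variable, 0 more, and the median residual was -0.77. Of 76 cytosolic ribosomal protein genes, 19 were called less variable and 2 more, the row-bound RPS27A and RPL28, with a median of -0.52. Without the top row these counts were 37 and 32 less variable. The class I antigen presentation list also had a negative median, -0.28 over 13 genes, with 1 called.

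Genes that varied together were dominated by the cell cycle. Spearman rho was computed across the cells of each tumour for 11103828 pairs of 4713 genes whose thinned mean was 0.5 or more, and a pair was placed by its smallest rho of the 3 tumours. In 99 pairs rho was at least 0.4 in every tumour (0.000892% of pairs). Of these, 24 shared at least one 31-base stretch between their transcripts, among them SPANXB1 with SPANXC (0.75, 0.64 and 0.73), so shared reads cannot be told apart from shared expression in them. The other 75 were pairs of coding genes with no such stretch, and 73 of them joined 36 genes, mostly of the cell cycle, into 1 group. With 1 cell per linked set 111 pairs reached 0.4, among them 77 of the 99 and 55 of the 75; without all linked cells 65 of the 99 did. The labels do not say which cells of a tumour share a library. Cells differ in the number of genes detected, and holding that number constant left 39 of the 99 pairs at 0.4. Centring the ranks within chip rows left 74. Without tumour 1 there were 335 such pairs and without tumour 2 there were 177.

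TOP2A, the topoisomerase that untangles chromosomes, had 19 partners at this level, 16 of which stayed at 0.4 with 1 cell per linked set. It was counted in 65.6%, 74.8% and 74.3% of cells, from 0 to 118 around a median of 2 in tumour 1, from 0 to 197 around 3 in tumour 2 and from 0 to 100 around 5 in tumour 3. Most cells thus had few TOP2A counts while a minority had many. With CENPF, a kinetochore protein, rho was 0.54, 0.53 and 0.70 over 241, 246 and 237 columns, and 0.54, 0.59 and 0.64 over the 163, 180 and 168 left with 1 per linked set. In cells with TOP2A the mean CENPF count was 12.2, 13.4 and 14.9, and in cells without it 1.93, 4.13 and 1.46. With the proliferation antigen MKI67 rho was 0.52, 0.55 and 0.64, and with the ubiquitin-conjugating enzyme UBE2C 0.52, 0.52 and 0.63. TPX2, which binds the spindle, had 14 partners, 7 of them with 1 cell per linked set. PTTG1, the securin that holds back the separation of sister chromatids, had 11, of which 10 stayed. PTTG1 ran with BIRC5 (survivin) at 0.51, 0.54 and 0.63 and with the phosphatase CDKN3 at a smallest rho of 0.50. TOP2A itself ran with the number of genes detected in a cell, at rho of 0.36, 0.21 and 0.29, and with that number held constant the smallest rho of TOP2A with CENPF was 0.49.

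HIST1H4C joined the group through UBE2C (smallest rho 0.47), TOP2A (0.47) and HIST1H1E, with which rho was 0.46, 0.60 and 0.65. Of the 780 pairs within the list of G2 and mitosis genes, 540 (69.2%) were at least 0.2 in every tumour, against 0.0384% of all pairs, and with 1 cell per linked set 554 of 703 (78.8%) were. Of 378 S phase pairs, 116 (30.7%) were, and 72 of 276 (26.1%) with 1 cell per linked set; the strongest were CLSPN with ATAD2 at 0.37, 0.45 and 0.50 and MCM10 with ATAD2 at 0.36, 0.56 and 0.50, the first of which share a 31-base stretch. The lists had been chosen with earlier results known, and their genes are known to move with the cycle. In excess variation these lists were near all genes: the median residual was 0.15 over 55 G2 and mitosis genes and 0.16 over 41 S phase genes, with 0 called more variable and 2 and 1 called less. MKI67 had residuals of 1.76, 2.78 and 0.69 and TOP2A 0.68, 2.10 and 1.00.

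The promoters of 7 genes of the 36-gene group are shown because the late-cycle genes are known to share 2 short elements, a CCAAT box and the cell cycle gene homology region. Each run is the 150 bases before the start, 5′ to 3′ on the gene's strand, from RefSeq (GRCh38.p14): TOP2A chr17:40417897-40418046 (minus strand), CENPF chr1:214603045-214603194 (plus strand), MKI67 chr10:128126424-128126573 (minus strand), CCNB1 chr5:69167000-69167149 (plus strand), CDC20 chr1:43358831-43358980 (plus strand), PTTG1 chr5:160421705-160421854 (plus strand) and DLGAP5 chr14:55191586-55191735 (minus strand). Capitals mark CCAAT on either strand (it reads ATTGG from the other one), the letters TTTGAA of the homology region on either strand and its relative TTTAAA, and matches that overlap, as in MKI67, are merged.
TOP2A: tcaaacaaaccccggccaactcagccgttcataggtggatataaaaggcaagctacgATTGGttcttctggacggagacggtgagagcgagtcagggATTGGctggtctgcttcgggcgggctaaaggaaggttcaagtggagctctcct
CENPF: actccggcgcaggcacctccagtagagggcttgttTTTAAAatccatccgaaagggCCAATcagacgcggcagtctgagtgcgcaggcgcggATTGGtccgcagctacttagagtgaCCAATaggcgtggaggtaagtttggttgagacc
MKI67: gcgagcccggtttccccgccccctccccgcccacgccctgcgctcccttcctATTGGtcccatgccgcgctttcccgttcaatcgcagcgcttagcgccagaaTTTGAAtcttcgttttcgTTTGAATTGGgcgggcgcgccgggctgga
CCNB1: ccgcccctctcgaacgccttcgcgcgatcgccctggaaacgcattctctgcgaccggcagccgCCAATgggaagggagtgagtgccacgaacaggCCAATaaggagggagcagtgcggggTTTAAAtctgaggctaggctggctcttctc
CDC20: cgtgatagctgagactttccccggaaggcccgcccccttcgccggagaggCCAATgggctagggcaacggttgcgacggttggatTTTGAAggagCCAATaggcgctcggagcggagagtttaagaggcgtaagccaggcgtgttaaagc
PTTG1: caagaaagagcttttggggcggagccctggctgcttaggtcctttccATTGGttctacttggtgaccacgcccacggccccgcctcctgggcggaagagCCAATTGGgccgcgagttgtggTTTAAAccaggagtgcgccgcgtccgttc
DLGAP5: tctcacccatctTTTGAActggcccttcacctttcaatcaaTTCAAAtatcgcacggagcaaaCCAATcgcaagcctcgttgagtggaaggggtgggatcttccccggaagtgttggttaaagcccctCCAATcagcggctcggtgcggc
CCAAT lay within 250 bases before the start in 21 of the 29 promoters matched for the 36 genes (72.4%), against 33.0% of all promoters and 36.1% of those of the tested genes. TTTGAA was found in 14 (48.3%, against 13.6% and 8.51%) and TTTAAA in 7 (24.1%, against 11.4% and 6.71%). CCAAT together with either of the others was found in 16 (55.2%, against 7.85% and 5.70%). TOP2A, which had the most partners, held 2 CCAAT boxes in the printed run and neither TTTGAA nor TTTAAA. Other forms of the homology region were not searched for.

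Outside the cell cycle, 2 other coding pairs reached 0.4 in every tumour. HSPA5 and HSP90B1, both chaperones of the endoplasmic reticulum, had rho of 0.40, 0.44 and 0.40 (0.36, 0.40 and 0.36 with 1 cell per linked set), and RPS14 and RPS18, both of the small ribosomal subunit, 0.51, 0.46 and 0.46 (0.49, 0.45 and 0.49). At 0.3, which 637 pairs reached (0.00574%), 95 genes formed 1 group around those of the cell cycle, and 9 small groups stood apart. The 95 also held genes with other roles, such as DBI and PSMC3. One held 12 ribosomal protein genes and FTL. One held ATP5MC1, COX6A1 and UQCRQ of the respiratory chain with NME1, RPL35 and SNRPD2. The hypoxia-responsive NDRG1 and the glycolytic enzyme PGK1 had rho of 0.41, 0.38 and 0.46, and PGK1 had 0.30, 0.38 and 0.38 with ENO1. C4orf3 was the fourth gene of that group. FOSB and EGR1, immediate-early transcription factors, had 0.38, 0.52 and 0.60. In cells with FOSB the mean EGR1 count was 10.8, 8.70 and 8.35 and in cells without it 2.00, 3.45 and 1.15. FOS and JUND belonged to the same group. The heat shock genes HSPA1A and DNAJB1 had 0.31, 0.50 and 0.37.

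Pairs of other lists were weaker. Of 2775 pairs of ribosomal protein genes, 261 (9.41%) were at least 0.2 in every tumour, of 561 immediate-early pairs 27 (4.81%), of 210 heat shock pairs 13 (6.19%) and of 528 hypoxia and glycolysis pairs 19 (3.598%). Of 28 cytokine and NF-kB pairs, 7 (25%) were. The NF-kB inhibitor NFKBIA and the apoptosis inhibitor BIRC3 had 0.28, 0.28 and 0.32, and the chemokines CXCL2 and CXCL3 0.27, 0.44 and 0.35. CXCL2 and CXCL3 share 31-base stretches, so shared reads cannot be told apart from shared expression in them. No pair of the 136 in the mesenchymal and epithelial list reached 0.2, nor any of 253 in the EGF receptor and ERK list. The highest of the 253, the ligand EREG with PHLDA1, had 0.15, 0.17 and 0.16, and this pair also shares such stretches. CD74, the invariant chain of class II molecules, was counted in 60.6%, 78.9% and 69.6% of cells and HLA-DRA in 10.96%, 24.2% and 15.2% of the cells with CD74 against 2.11%, 1.92% and 2.78% of the cells without it.

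Genes that ran opposite to each other were few and mostly opposite to MALAT1. Of all pairs, 38 (0.000342%) had rho of at most -0.2 in every tumour, 23 of them with MALAT1 and 5 with NDRG1, and 1 had at most -0.3. That one was MALAT1 with ATP5MC1, a subunit of the mitochondrial ATP synthase, at -0.37, -0.31 and -0.32, and at -0.42, -0.33 and -0.32 with 1 cell per linked set. Of the 38 pairs 27 stayed at -0.2 on that basis, 20 of them with MALAT1. The microtubule regulator STMN1 had -0.43, -0.32 and -0.29 with MALAT1 (-0.22 in tumour 3 with 1 cell per linked set), the actin-binding PFN1 -0.36, -0.33 and -0.28, and the ribosomal RPL35 -0.39, -0.33 and -0.28. PPIA, NPM1, CENPU, RPS15 and HMGB1 completed the 9 of the 10 most opposite pairs that held MALAT1. The rho of CENPU with MALAT1 was -0.15 in tumour 1 with 1 cell per linked set, short of -0.2. MALAT1 ran with NEAT1 at 0.38, 0.57 and 0.50 and with NDRG1 at 0.32, 0.32 and 0.37. Its rho with the number of genes detected was -0.13, 0.01 and 0.03, and with the counts of a cell before thinning -0.02, -0.18 and -0.04. HIST1H1E with HSP90B1 (-0.32, -0.30 and -0.25) was the remaining pair of the 10. With 1 cell per linked set that pair had -0.195 in tumour 3, short of -0.2. The mitotic activator CDC20 with NDRG1 had a largest rho of -0.23. Counts of a cell were fixed at 20000, so a gene that takes a large share lowers the rest; MALAT1 had a mean of 7029 CPM, and the part of this in the negative pairs was not tested.

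**Figure D4:**
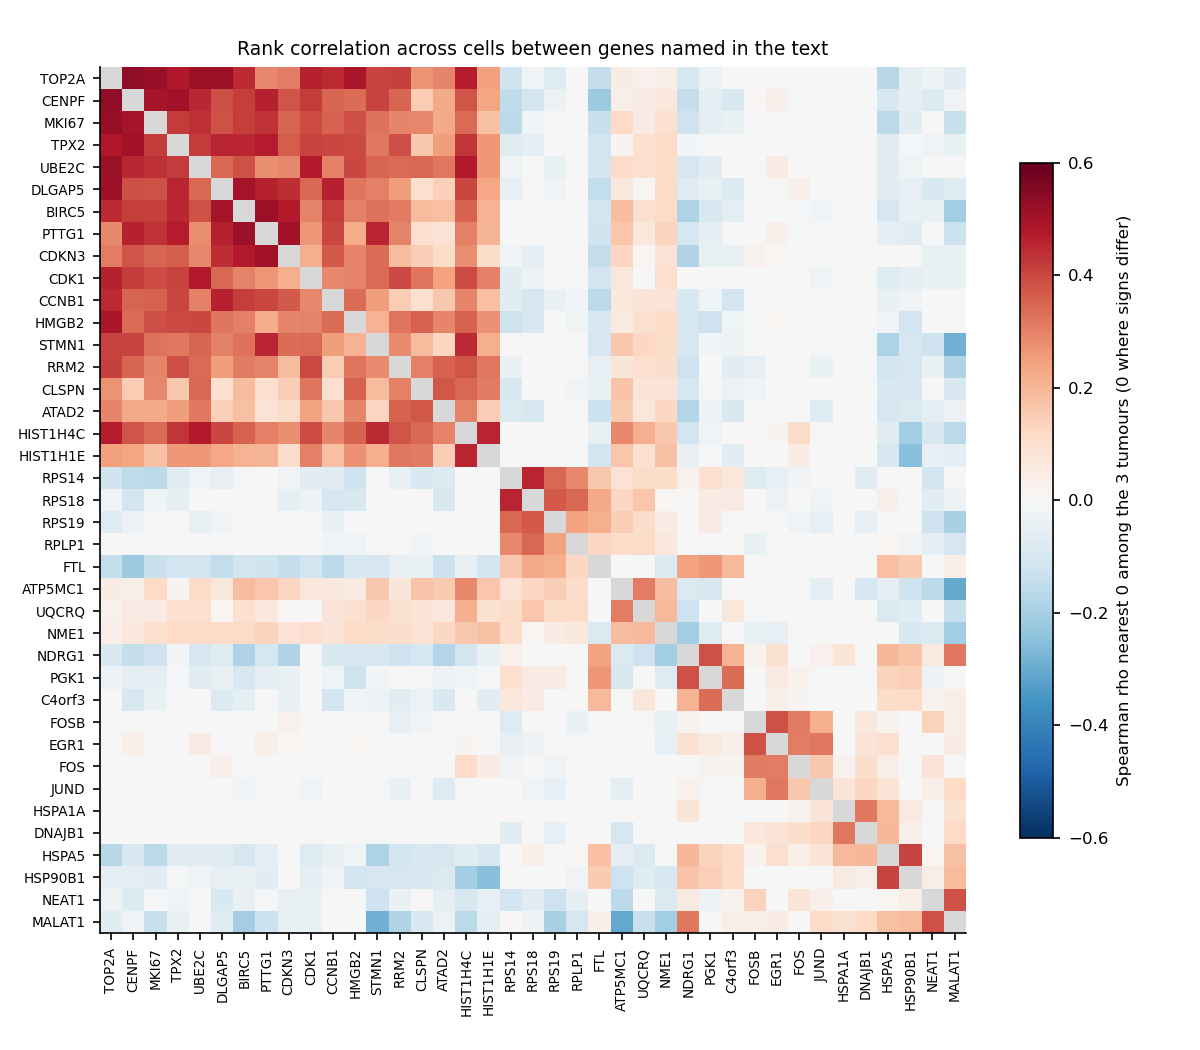
Spearman rho across cells between 39 genes named in the text or of the same groups, on a colour scale from -0.6 to 0.6; each square shows the value nearest 0 among the 3 tumours, and 0 where the tumours differ in sign. The block of cell cycle genes at the upper left holds the highest values, and MALAT1 has its lowest square with ATP5MC1 (-0.31).

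**Figure D5:**
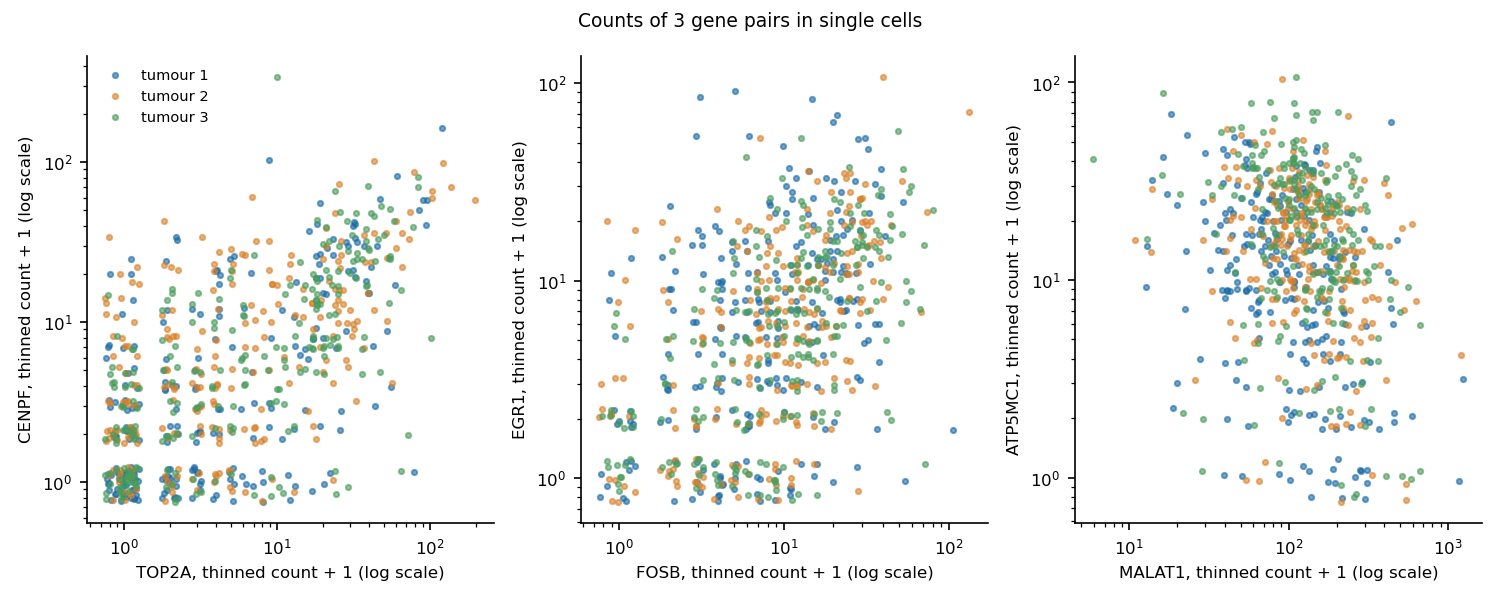
Thinned counts plus 1 of 3 gene pairs in single cells (points, coloured by tumour, log scales, jittered by up to 0.25 counts). Cells high in TOP2A are mostly high in CENPF (rho 0.54, 0.53 and 0.70), EGR1 follows FOSB less tightly (0.38, 0.52 and 0.60), and ATP5MC1 is lower where MALAT1 is high (-0.37, -0.31 and -0.32).

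Pairs of cells of the same tumour, compared over all tested genes at equal depth, had a median rank correlation of 0.31, 0.35 and 0.34 in tumours 1, 2 and 3, and of 0.31, 0.35 and 0.33 with 1 cell per linked set. From percentile 5 to percentile 95 of cell pairs these ran from 0.26 to 0.36, 0.29 to 0.39 and 0.27 to 0.40. Tumour 1 had the lowest median and also the highest median log2 squared coefficient of variation, 3.91 against 2.97 and 2.92, beside its lower number of genes per thinned cell. With 3 tumours of 1 kind there is no comparison to test.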

How the data were processed

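The authors deposited raw counts, whole numbers per gene and cell. The submitters' processing notes name Trim Galore, STAR and featureCounts, and the builds hg38 and hg19 without a role; versions, strand setting and molecular identifiers are not given in the sources used here. Genes that share sequence are therefore uncertain, and chromosomes and lengths come from GENCODE 29, which lacks 41 of the tested names. The members and all lists were chosen with earlier results of these data known.

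Cells were assigned to tumours by the ending of their names, which could not be tied to the replicate numbers of the labels. Cells of a tumour and chip column whose rank correlation over the tested genes exceeded that of every pair of cells from different chip columns of the tumour were called linked, and sets were formed by joining linked cells. No doublet caller was run; the 5% of cells with most genes were left out as an alternative. Levels are CPM of the counts summed per tumour, and intervals were not computed for single cells. Each cell of 20000 counts or more was thinned to 20000 without replacement (seed 1). Genes whose thinned mean was 0.1 or more in each tumour entered the test: log2 squared coefficient of variation, residual from lowess (fraction 0.3, statsmodels 0.14.6), limma 3.58.1 (R 4.3.3) with an intercept and a trended prior over the 3 tumours, two-sided, Benjamini-Hochberg adjusted, threshold 0.05. Pairs used Spearman rho within each tumour. Python 3.11.15, numpy 2.4.6 and pandas 2.3.3 were used. The script was tested on simulated counts with 200 planted genes.

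Named by rule were the 20 genes with the highest CPM, the 25 with the largest residual in their least variable tumour and the 10 with the smallest, at a thinned mean of at least 0.5, the 25 strongest and 10 most opposite pairs, and for each list up to 4 genes and 2 pairs. Promoters were matched by symbol or older symbol: 29 of 36 genes of the cell cycle group and 29 of 35 interferon genes. In 8 of the 11 promoters read out, the bases just after the start lay in a GENCODE transcript of the gene.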

Additional observations from a re-analysis of the deposited data

How the results depend on the processing

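The count of 7 more variable genes was 2 at 40000 counts per cell and 4 with counts scaled in place of thinned, with no filter on low values and with cells of at least 2000 genes; without 1 tumour it ran from 0 to 6, and without the top chip row of each gene it was 94, and 62 with 1 cell per linked set as well and 81 without all linked cells as well; without the top row RPS27A was at -0.0186, GDAP2 at -0.14, RPL28 at -0.0236, CHCHD2 at -1.07, CYTOR at -0.33, COPZ1 at -0.0585 and RPS27AP16 at -2.03. With linked cells thinned to 1 per set or left out, CHCHD2 was at -1.22 or -1.19 and, without the top row as well, at -1.05 or -1.01, CYTOR at -0.475 or -0.535, COPZ1 at -0.0201 or -0.0129 and RPS27AP16 at -2.06 or -1.95; GDAP2 was at -0.0133 and RPL28 at -0.433 without linked cells and top row. The 670 less variable genes stayed within 1.5 times in every alternative (568 to 990 without 1 tumour; 868 without the top row). The 113 genes at least 1 above the trend were 74 at 10000 counts, 75 at a thinned mean of at least 0.5, 71 without the top row and, with 1 tumour fewer to pass, 326 to 395. The 99 pairs were 47 at 10000 counts, 218 with scaled counts, 160 by Pearson on log2(count + 1), 40 with genes detected held constant and 103 to 335 without 1 tumour; the 1 pair at -0.3 was 2 with 1 cell per linked set and without linked cells, 0 at 10000 counts and without the 5% of cells with most genes, 2 with scaled counts, 3 with genes detected held constant and within rows, and 2 to 5 without 1 tumour. The share of the 20 top genes was 13.1%, 27.7% per exonic length and 12.6% to 14.01% without 1 tumour. The median cell-to-cell correlation was 0.335, 0.298 at 10000 counts and 0.328 to 0.346 without 1 tumour. Beyond what these constructions do (fewer counts, genes or tumours), the cause was not tested. The linked cells, the top row, ranks within rows and the split of pairs by shared sequence were added after seeing the data. No paired analysis was possible because only 1 arm is described. At 20000 counts a cell, 1 count is the least that can be seen, so cells without a count are not shown to lack the transcript.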
